A study of Mus musculus with 2 samples.

Results

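CTCF binding was described at 40 genes that copy DNA or build the centromere (the members), out of 21938 protein-coding genes in the gene models used. The 40 genes came from a list given by name, and all 40 names were found in the annotation. They were the MCM helicase genes with Mcm10 (7), GINS and Cdc45 (5), the origin recognition complex (6), the licensing factors Cdc6, Cdt1 and Gmnn (3), DNA polymerases (3), the sliding clamp and its loader (6), the single-strand binding complex RPA (3), Okazaki fragment enzymes (2), centromere genes (3) and Top2a and Mki67 (2). The last pair mark dividing cells and act on mitotic chromosomes, so the list is broader than replication and centromere. A promoter site was a peak of the authors' optimal list whose summit lay within 1 kb of a transcription start site (TSS) of the gene, and a gene body site was one inside the gene and over 1 kb from its TSSs.

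CTCF was immunoprecipitated from forebrain of B6NCrl mice of age 0 days after birth, and the bound DNA was sequenced (ChIP-seq). The tissue was powdered and came from several dissections put together, no sex was recorded, and no genetic change or treatment is named. Both libraries, replicate 1 and replicate 2, belong to 1 group and cite the same tissue sample, and their spread may therefore be technical. There was no second condition, and a control experiment that the labels point to was not analysed here. The strength of a peak is the signal value that the authors' peak caller wrote. Its scale was not stated, so it serves for rank and size within a list. In pooled tissue, weaker binding in all cells and binding in fewer cells cannot be told apart.

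CTCF is a zinc-finger protein that recognises a long DNA motif and, with cohesin, anchors chromatin loops. DNA replication begins where the origin recognition complex (ORC) sits. There Cdc6 and Cdt1 load the MCM ring onto DNA, and Cdc45 and GINS join the ring to make the active helicase. RPA then coats the unwound strand, replication factor C (RFC) loads the PCNA clamp, and polymerases extend the new strands. At the centromere the histone variant Cenpa, placed by its chaperone Hjurp, marks where the kinetochore forms. In the newborn forebrain these genes serve the progenitors that still divide beside the ventricles, among many neurons that have left the cell cycle.

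The DNA under the strongest member promoter sites is shown first, since their closest stretches to the CTCF consensus differed. Gins4 (552) and Rfc2 (231), also among the strongest, are not shown because they had no RefSeq promoter sequence. Each window is centred on the summit or, where an exon is near, holds 30 bases around the closest stretch to the CTCF consensus. It is read 5′ to 3′ on the strand of the gene in mm10. Capitals mark the closest 14-base stretch to the consensus, on either strand, where it had at most 3 mismatches.
Hjurp (chr1:88277678-88277738, minus strand): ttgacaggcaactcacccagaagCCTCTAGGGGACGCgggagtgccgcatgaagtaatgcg
Pold1 (chr7:44548962-44549022, minus strand): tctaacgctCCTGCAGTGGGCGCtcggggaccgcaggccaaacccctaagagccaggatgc
Rfc3 (chr5:151651296-151651356, minus strand): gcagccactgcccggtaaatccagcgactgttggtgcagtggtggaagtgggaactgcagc
Mcm5 (chr8:75108697-75108757, plus strand): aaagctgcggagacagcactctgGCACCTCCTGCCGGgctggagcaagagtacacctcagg
Rfc5 (chr5:117388578-117388638, minus strand): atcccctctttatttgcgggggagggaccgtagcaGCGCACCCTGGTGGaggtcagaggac
Orc3 (chr4:34614919-34614948, minus strand): ctctgcttCCGCCAGGGCGCGCggaagtgt
Rfc4 (chr16:23128230-23128259, minus strand): gttgtgagCCACCAGATGGCTAtcaaaacc
Fen1 (chr19:10204719-10204779, minus strand): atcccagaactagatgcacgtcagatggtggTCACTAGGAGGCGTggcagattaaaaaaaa
The stretch had 2 mismatches at Hjurp, Pold1, Orc3 and Rfc4 and 1 at Rfc5, which counted as a motif match. At Mcm5 and Fen1 it had 3, and at Rfc3 the best stretch had 5, so no letters are in capitals there. With at most 3 mismatches allowed, 14 of the 19 members with a site had a match, against 72.9% of all such genes.

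Of the 40 genes, 19 had a promoter site (47.5%, Wilson 95% interval 32.9 to 62.5%), against 36.8% of all protein-coding genes. A gene body site was present in 19 of 40 as well, against 43.8% of all protein-coding genes. Both kinds were found in 11 genes, a promoter site alone in 8, a body site alone in 8, and neither in 13 (32.5%, against 40.7% of all protein-coding genes). The promoter interval of the members includes the share of all genes, and it covers counting error only. The 19 strongest promoter signal values had a median of 63.1, against 56.7 over the 8081 protein-coding genes with a site. The order of these medians turned with the conservative list (55.8 for members and 60.1 for all genes), with a window of 5 kb (70.2 and 82.1) and with replicate 1 alone (27.7 and 30.4).

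**Figure D1:**
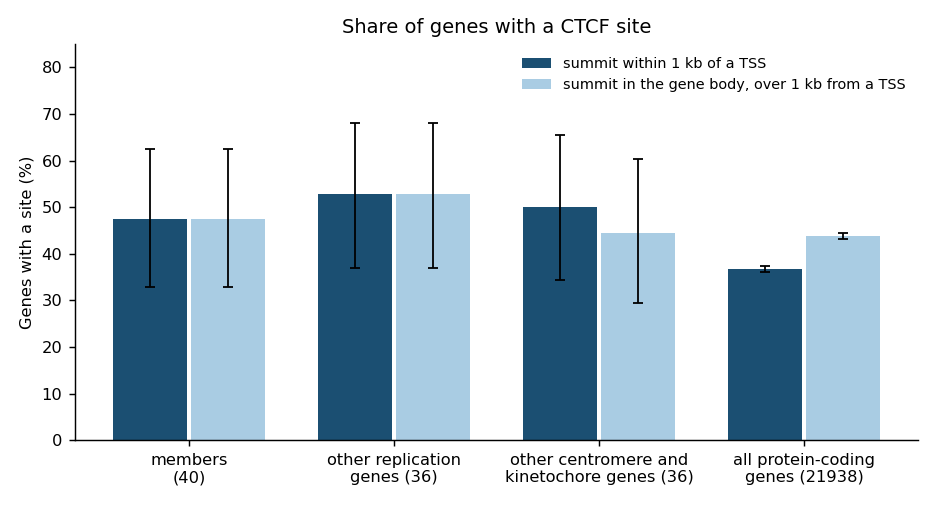
Share of genes (%) with a CTCF summit within 1 kb of a TSS (dark bars) or in the gene body (light bars) for the 40 members, 36 other replication genes, 36 other centromere and kinetochore genes and all 21938 protein-coding genes, with Wilson 95% intervals. The intervals of the 3 short lists span 29.5 to 68.0% and include the share of all genes in each case but the promoters of the other replication genes, where the interval starts at 37.0%.

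The strengths of the 19 promoters ran from 7.97 to 552. A signal value over 200 was reached by 6 of 19 members with a site (Gins4, Hjurp, Pold1, Rfc3, Rfc2 and Mcm5), against 16.2% of all such genes. At the weak end, 8 of 19 had under 40 (42.1%, against 35.3% of all such genes). The quartiles were 27.4 and 220 for the members and 32.3 and 135 for all protein-coding genes with a site.

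**Figure D2:**
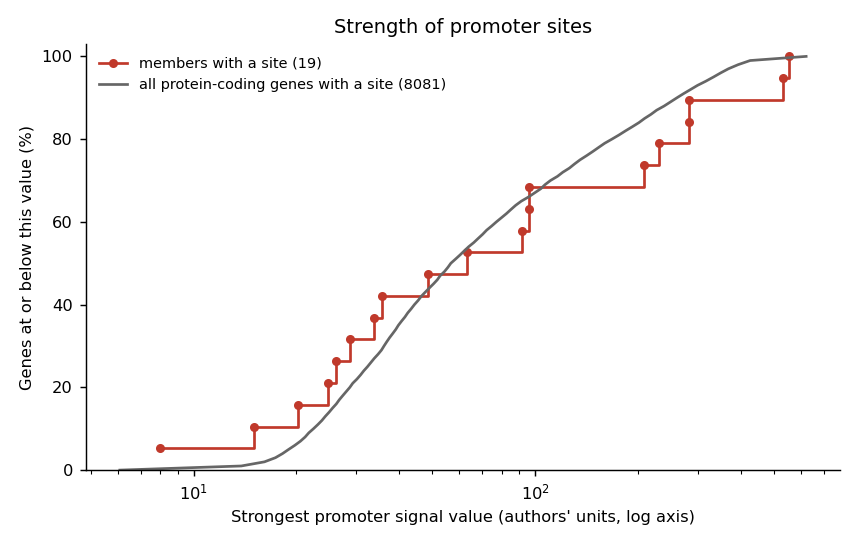
Cumulative share of genes (%) by the signal value of the strongest promoter site (log axis), for the 19 members with a site (red steps) and all 8081 protein-coding genes with one (grey line). The red steps lie above the grey line at the weak end, where Rfc1 has 7.97 and Cenpa 15.0. In the middle of the range they cross it several times. At the strong end, which holds Mcm5 (209) to Hjurp (532), they lie below it.

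Among the helicase genes, Mcm5 stood far above the other MCM promoters. Mcm5 encodes a subunit of the MCM ring. Its site had a signal value of 209 in the optimal list, 118 in replicate 1 and 91.2 in replicate 2, and lay 842 bp upstream of the TSS (chr8:75108629-75108824). Mcm2 had 35.7 in the optimal list, 18.4 in replicate 1 and 20.4 in replicate 2, in an intron 218 bp past the TSS. Mcm7 had 26.1, with 18.1 in replicate 1 and 8.64 in replicate 2, at 646 bp past its TSS and 830 bp from the TSS of the neighbour Ap4m1. No optimal-list promoter site was found at Mcm3, Mcm4 and Mcm6, the other ring subunits listed, or at Mcm10, which helps to start the helicase. None of the 3 bound MCM promoters had a motif match.

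Gins4 had the strongest promoter site of the 40 genes. GINS is a small ring of subunits that ties Cdc45 to MCM. The Gins4 site had 552 in the optimal list, 294 in replicate 1 and 260 in replicate 2, 213 bp upstream of the TSS (chr8:23237710-23238032), with a motif match of 2 mismatches. It ranked 6 among the 8081 coding promoters with a site. A second Gins4 summit, 353 bp past the TSS, had 35.9. Gins2 had 33.8 in the optimal list, 25.7 in replicate 1 and 10.8 in replicate 2, so replicate 1 was the higher library there. Gins1, Gins3 and Cdc45 had no promoter site in the optimal list.

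In the origin recognition complex, Orc3 and Orc5 were bound at the promoter and Orc1, Orc2, Orc4 and Orc6 were not. Orc3 had 95.8 in the optimal list, 49.0 in replicate 1 and 46.3 in replicate 2, with its summit 15 bp past the TSS, in the UTR. The divergent gene Rars2 starts 28 bp from the same summit. Orc5 had 48.5 in the optimal list, 32.6 in replicate 1 and 17.1 in replicate 2, at 61 bp upstream of its TSS and 1 bp from that of a noncoding RNA gene on the other strand, 6030443J06Rik. A promoter peak like these cannot be assigned to 1 of the neighbouring genes. Of the 21 member promoter sites, 9 lay within 1 kb of a TSS of another gene, and 4 were nearer to such a TSS. Sites of Gins2, Fen1 and Rfc5 were among those 9. The matching shares over the promoter sites of all protein-coding genes were not computed.

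Of the licensing factors, Cdt1 alone had a promoter site, a weak one of 20.2 near the edge of the window, 943 bp past the TSS. It had 11.3 in replicate 1 and 8.55 in replicate 2, and the gene had no site when replicate 2 alone was used. Cdc6, the loader of MCM, and Gmnn, the inhibitor of Cdt1, had none in the optimal list. Just inside the 1 kb limit were Cdt1 and Mcm5, at 943 and 842 bp. The nearest summits outside it were 1140 bp from the TSS of Cenpc1, 1574 bp from that of Pole and 1697 bp from that of Cdc6.

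Pold1, the catalytic subunit of the polymerase that makes most of the lagging strand, had 283 in the optimal list, 137 in replicate 1 and 146 in replicate 2, at 145 bp upstream (chr7:44548880-44549123). Replicate 2 was slightly higher there, while the median log2 ratio of replicate 1 to 2 over all optimal-list peaks was 0.20. The catalytic subunits of the other replicative polymerases, Pola1 and Pole, had no promoter site.

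All 5 subunits of the clamp loader RFC had a promoter site, while the clamp gene Pcna had none. That made 5 of the 6 genes of this role, against 36.8% of all protein-coding genes, and the difference was not tested. Rfc3 had 283 in the optimal list, 148 in replicate 1 and 135 in replicate 2, 84 bp upstream of the TSS (chr5:151651206-151651462). Rfc2 had 231, with 135 in replicate 1 and 95.5 in replicate 2, 44 bp upstream of its nearest TSS. That summit lay inside the gene feature but before the only TSS of the transcripts used, and in none of their exons. Rfc5 had 96.2, with 51.0 and 46.0 in replicates 1 and 2, in an intron 437 bp past the TSS, plus a weak summit of 21.8 at 225 bp upstream. These 3 genes and Rfc1 lie on chromosome 5, at separate places. Rfc4 had 91.9 in the optimal list, with 57.6 in replicate 1 and 31.9 in replicate 2, 500 bp upstream and 444 bp from the TSS of a noncoding RNA gene. Rfc1, the large subunit, had the weakest promoter site of all members, 7.97, with 8.12 in replicate 1 and no overlapping peak in replicate 2. Rfc1 had no site in the conservative list or with either replicate alone. With 1 TSS per gene, at the 5′ end of the gene feature, Rfc2 and Mcm7 had no site. Gins1, which had none within 1 kb of its transcript TSSs, had one with that setting.

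The RPA and Okazaki fragment genes had weak to moderate sites. Rpa1, the large RPA subunit, had 24.7 in the optimal list and 15.0 and 14.8 in replicates 1 and 2. Its summit was 180 bp from its own TSS and 71 bp from that of Smyd4 on the other strand. Rpa2 had 28.7, with 10.02 in replicate 1 and 18.1 in replicate 2, and its site was missing from the conservative list. Rpa3 had no site in the optimal list. Fen1, which trims the flaps of Okazaki fragments, had 63.1 in the optimal list, 27.7 in replicate 1 and 34.5 in replicate 2, 580 bp upstream. Lig1, the ligase that seals them, had none in that list.

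At the centromere genes, Hjurp and Cenpa lay at opposite ends of the range. Hjurp had 532 in the optimal list, 287 in replicate 1 and 247 in replicate 2, 75 bp upstream of the TSS (chr1:88277499-88277873), and ranked 9 among coding promoters with a site. Cenpa had 15.0, with 9.13 in replicate 1 and 6.94 in replicate 2, 84 bp upstream. It dropped out in the conservative list and with either replicate alone. Cenpc1, which links Cenpa chromatin to the kinetochore, had no promoter site, nor had Top2a, which untangles DNA, or Mki67. A longer stretch of the Hjurp upstream region, cut where the annotated exon begins, shows the match (capitals, 2 mismatches) in its context. The sequence is from the RefSeq promoter table of GRCm38.p6.
Hjurp upstream region (chr1:88277634-88277829, minus strand): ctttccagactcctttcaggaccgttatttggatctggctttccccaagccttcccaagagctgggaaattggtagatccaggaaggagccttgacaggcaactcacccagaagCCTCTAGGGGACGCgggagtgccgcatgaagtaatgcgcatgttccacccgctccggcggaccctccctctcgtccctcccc

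**Figure D3:**
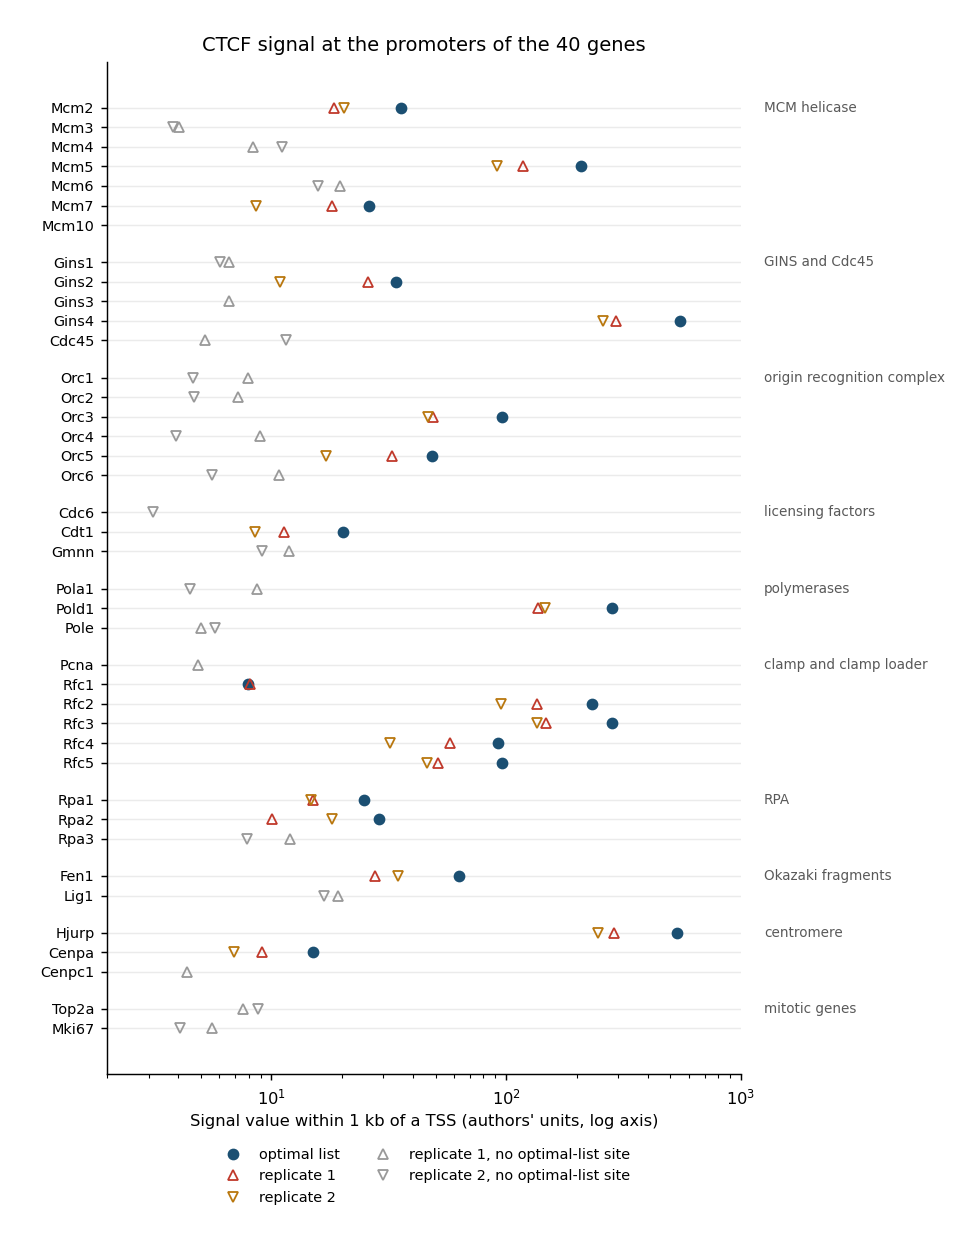
Signal value (log axis) within 1 kb of a TSS for each of the 40 genes, grouped by role, with the optimal list (filled circles), replicate 1 (upward triangles) and replicate 2 (downward triangles) at the strongest optimal-list site; grey triangles give the strongest called peak in each replicate for the 21 genes with no such site. Gins4 and Hjurp stand above 500, Rfc1 has the lowest circle at 7.97, and Mcm10 has no symbol because neither replicate had a peak there.

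Motif matches were found at the strongest promoter site of 8 of the 19 members (42.1%, Wilson 95% interval 23.1 to 63.7%), against 38% of all protein-coding genes with a site. They were Gins4, Hjurp, Pold1, Rfc2, Rfc5, Orc3, Rfc4 and Rpa2. The median signal value was 164 for the 8 members with a match and 33.8 for the 11 without, against 113 and 43.0 over all genes with a site. The strongest member site without a match was Rfc3 at 283. The match was read on the strand of the gene in 6 of 8 members (Rfc2 and Rfc5 were the exceptions), against 56.2% of all genes with a match. With at most 1 mismatch, Rfc5 alone kept a match, against 14.3% of all genes with a site.

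Most of the 19 strongest summits lay upstream and close to the TSS. There were 13 of 19 upstream of the nearest TSS of the gene (68.4%), against 56.4% of all genes with a site. Of these, the summits of Rfc2 and Rfc1 lay inside the gene feature, downstream of its 5′ end. Within 250 bp of the TSS were 12 of 19 (63.2%), against 55.2% of all. The median distance was 180 bp for the members and 210 bp for all genes with a site.

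**Figure D4:**
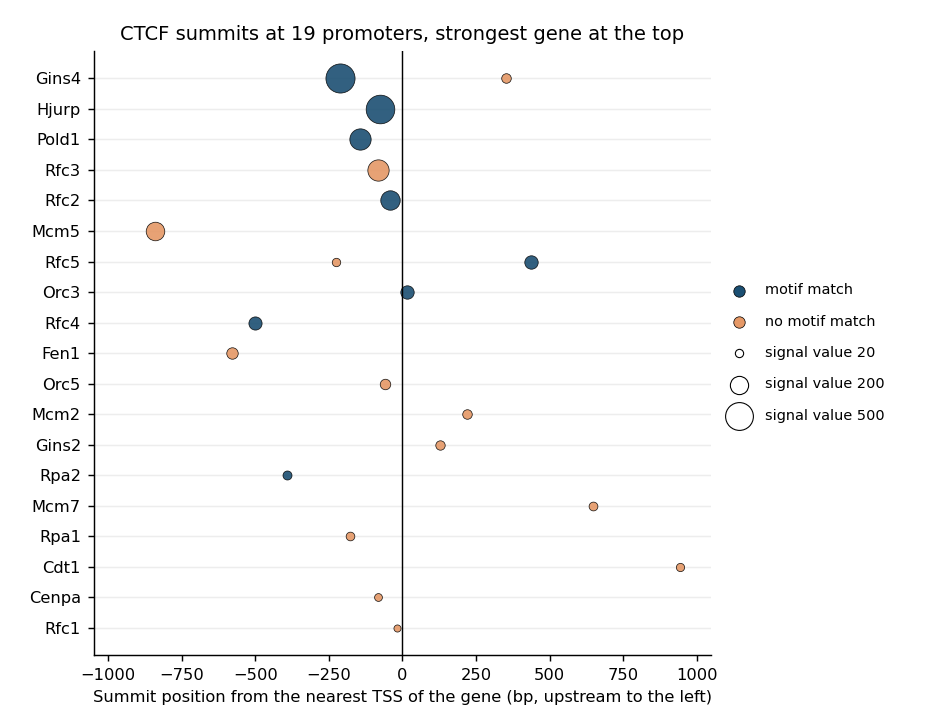
Position of the 21 promoter summits in base pairs from the nearest TSS of the gene, for the 19 members with a site, strongest at the top. Circle area grows with the signal value, and blue circles have a motif match of at most 2 mismatches. The 6 genes with a signal value over 200 have their strongest summit upstream of the nearest TSS, between 44 and 842 bp from it. That of Rfc2 is still inside the gene feature.

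Promoters outside the optimal list were not all empty. Of the 21 members without an optimal-list site, 16 had a called peak within 1 kb in both replicate lists (76.2%), against 40.2% of all protein-coding genes without one. Those lists each hold 300000 peaks, a fixed length, and so reach down to weak entries. Called on both libraries together, the strongest peak within 1 kb had a q-value of at most 0.05 at 10 of the 21 (47.6%), against 28.1% of such genes. A conservative-list summit was present at 4 of the 21 (Mcm6, Lig1, Gmnn and Rpa3), against 5.54% of such genes. Mcm6 had 35.8 in the list called on both libraries together, 19.7 in replicate 1 and 15.7 in replicate 2. Lig1 had 27.0, with 19.2 in replicate 1 and 16.7 in replicate 2. Both values are above that of Rfc1, which is in the optimal list, so membership of that list did not follow the signal value alone. Gmnn had 18.3 in the list called together and Rpa3 17.8. Taking from 1 replicate list only its 56462 strongest peaks, as many as the placed peaks of the optimal list, these 4 genes had a promoter site with replicate 1, and with replicate 2 Mcm6, Lig1, Cdc45 and Mcm4 had one. Mcm10 had no called peak in either replicate. Gins3, Pcna and Cenpc1 had one in replicate 1 only, and Cdc6 in replicate 2 only.

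The 13 genes with neither kind of site were Mcm3, Mcm4, Mcm6, Mcm10, Gins1, Gins3, Orc1, Orc6, Gmnn, Pole, Pcna, Rpa3 and Mki67. Their TSSs lay between 1574 bp (Pole) and 67453 bp (Mcm10) from the nearest optimal-list summit, with a median of 14457 bp. Over all 40 members the median distance was 1357 bp, against 4170 bp for all protein-coding genes. Within 50 kb of the gene's 5′ end the members had a median of 3.5 summits, from 0 (Mcm10 and Pola1) to 16 (Mcm2), against a median of 4 for all protein-coding genes.

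Inside the genes there were 31 sites, 2.48 per 100 kb of gene, against 2.45 per 100 kb over all protein-coding genes. Introns held 27, coding exons 2 and UTRs 2, and the matching shares over all protein-coding genes were not computed. The median signal value was 41.0, against 61.7 for the body sites of all protein-coding genes, and 22 of 31 had a motif match (71.0%), against 69.8%. The sequences of the 5 genes with the strongest body sites follow, in windows like those above, with the closest stretch in capitals.
Cdc45 (chr16:18798994-18799054, minus strand): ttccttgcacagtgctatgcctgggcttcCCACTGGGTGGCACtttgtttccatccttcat
Mcm2 (chr6:88893731-88893791, minus strand): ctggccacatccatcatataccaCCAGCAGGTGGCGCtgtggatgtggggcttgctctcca
Orc5 (chr5:22511989-22512049, minus strand): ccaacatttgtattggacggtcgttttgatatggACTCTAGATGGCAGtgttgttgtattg
Lig1 (chr7:13288764-13288824, plus strand): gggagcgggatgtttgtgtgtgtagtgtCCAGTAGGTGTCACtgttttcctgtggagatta
Cdc6 (chr11:98909818-98909878, plus strand): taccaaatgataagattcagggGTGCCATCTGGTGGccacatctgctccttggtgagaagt
The stretch had 0 mismatches at Mcm2 and Cdc6, 1 at Cdc45 and Lig1 and 2 at Orc5.

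Cdc45, which had no promoter site, had the strongest body site of the 40 genes, 288 in the optimal list, 151 in replicate 1 and 138 in replicate 2, in an intron 12963 bp past the TSS. Mcm2 had 262, with 148 in replicate 1 and 120 in replicate 2, in an intron at 5019 bp, far above the 35.7 at its promoter. Orc5 had body sites of 206 and 105, also above its promoter site. Lig1 had 204 in the optimal list, with 120 in replicate 1 and 82.4 in replicate 2. In these 4 genes the strong site was thus intronic and the promoter site weaker or outside the optimal list.

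Cdc6 had the most body sites of any member, 4, with 172 and 65.0 in introns and 41.0 and 117 in UTRs. Orc4 had an intronic site of 145 and Rpa2 one of 145 as well, while the Rfc3 intron had 78.1. Pola1, the primase-linked polymerase and the longest member at 327 kb on the X chromosome, had 3 sites, of 58.5, 54.7 and 24.3, all with a motif match. Rfc1 and Hjurp also had 3 each, and the body sites of Hjurp were weak, from 16.4 to 20.3, in contrast to its promoter. The other members with body sites had at most 53.8.

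**Figure D5:**
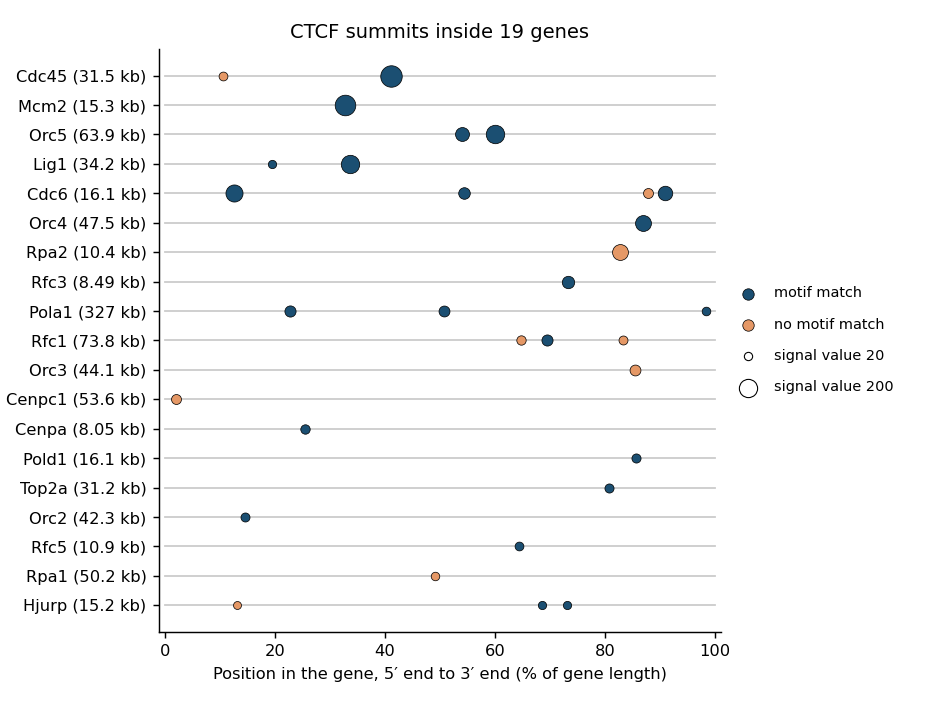
Position of the 31 gene body summits as a share of gene length (%), 5′ end to the left, for the 19 members with one, strongest gene at the top. Circle area grows with the signal value and blue circles have a motif match; gene lengths in kb stand beside the names. The sites over 200 are those of Cdc45, Mcm2, Orc5 and Lig1, and the 4 sites of Cdc6 run from 12.7 to 90.9% of its length.

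The shares varied with gene length and base composition. By length, the members had a body site in 0 of 4, 8 of 17, 5 of 12 and 6 of 7 genes, shortest quartile first, against 9.86%, 30.4%, 52.4% and 82.4% of all protein-coding genes in the same quartiles. By GC content of the TSS window, 25 of the 40 members fell in the second quartile (45.7 to 51.2% GC), and 11 of these 25 had a promoter site (44.0%), against 34.0% of all genes there. In the third quartile 5 of 9 members had one (55.6%), against 45.9%, and in the highest quartile 2 of 5, against 58.0%. The lowest quartile held 1 member, which had a promoter site, against 9.39% of all genes there. A coding gene starting on the other strand within 1 kb was present at 12 of the 40 members (30%), against 10.5% of all protein-coding genes. Of those 12 members, 4 had a promoter site (33.3%), against 58.0% of all genes with such a neighbour. Of the 28 members without one, 15 had a promoter site (53.6%), against 34.4%. The numbers of members in these classes are small, and the part of composition and neighbours in the shares was not tested.

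Among other genes of the same pathways, 19 of 36 replication genes had a promoter site, against 36.8% of all protein-coding genes. That was 52.8% of them (Wilson 95% interval 37.0 to 68.0%). Their median signal value was 39.7, against 63.1 for the members and 56.7 for all protein-coding genes with a site. The strongest were Lrwd1, an ORC-associated protein, with 230 (127 in replicate 1 and 102 in replicate 2), Timeless, which travels with the fork, with 227 (124 and 102), and Mcm9, a helicase of DNA repair, with 146 (81.4 and 68.5). Of 36 other centromere and kinetochore genes, 18 had a promoter site (50%, interval 34.5 to 65.5%), against the same 36.8%. Their median signal value was 75.02, against the same 56.7. Cenps, a DNA-binding centromere protein, had 379 (206 in replicate 1 and 172 in replicate 2), Nuf2, of the microtubule-binding Ndc80 complex, had 159 (76.4 and 77.9) and Cenpx, the partner of Cenps, had 159 (86.5 and 71.7). A motif match was present at 4 of the 19 strongest sites of the replication genes and 7 of the 18 of the centromere and kinetochore genes, against 38% of all genes with a site. With only the peaks at or above the median signal value, 9 of 40 members, 3 of 36 other replication genes and 10 of 36 other centromere and kinetochore genes had a promoter site, against 16.9% of all protein-coding genes. The differences between the lists were not tested.

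The replicates gave similar values at strong member sites and differed more at weak ones. The log2 of replicate 1 over replicate 2, after subtracting the median over all optimal-list peaks, had an SD of 0.53 over the 19 member promoter sites with a peak in both replicates, against 0.50 over all 56235 such peaks. It was -0.02 at Gins4, 0.02 at Hjurp and -0.30 at Pold1. The extremes were 1.04 at Gins2 and -1.05 at Rpa2, both under a signal value of 40. Over all peaks the SD was 0.26 at or above the median signal value and 0.66 below it. In the gene bodies, an intronic Rfc1 site of 28.3 had values of 23.9 and 6.21 in replicates 1 and 2, which gave 1.74 on the same scale. With 1 library on each side none of these differences has a test.

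Short words read by cell cycle factors were counted in the promoters of the members. Genes of replication are known targets of E2F factors, which switch them on before S phase, and many mitotic genes carry a cell cycle homology region (CHR) and CCAAT boxes read by NF-Y. RefSeq promoters of GRCm38.p6, from 250 bases before to 50 after the gene start, were matched for 33 of the 40 members, and not for Mcm4, Gins1, Gins2, Gins4, Gmnn, Pole and Rfc2. An E2F word (TTTCCCGC, TTTCGCGC, TTTGCCGC or TTTGGCGC, on either strand) was present in 13 of 33 (39.4%), against 2.6% of all genes in the table. Such a word stood in 6 of the 16 matched members with a CTCF promoter site and 7 of the 17 without. CCAAT on either strand was present in 24 of 33 (72.7%), against 41.1%, in 9 of 16 members with a CTCF site and 15 of 17 without. A CHR word (TTTGAA or TTTAAA, on either strand) was present in 11 of 33 (33.3%), against 30.6%. A CTCF consensus match within the same window was present in 5 of 33 (Hjurp, Mcm6, Orc3, Orc5 and Pold1), against 16.2%. A match says only that the letters are there.

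The E2F words of all 13 members that held one are shown for comparison, the first in each promoter, on the strand of the gene, with the word in capitals and at most 30 bases each.
Cdc6 (chr11:98908002-98908031, plus strand): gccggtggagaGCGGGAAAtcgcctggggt
Cdt1 (chr8:122568036-122568064, plus strand): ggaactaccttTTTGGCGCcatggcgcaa
Gins3 (chr8:95633507-95633536, plus strand): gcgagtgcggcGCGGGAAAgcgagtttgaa
Lig1 (chr7:13278841-13278870, plus strand): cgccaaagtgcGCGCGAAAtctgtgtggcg
Mcm3 (chr1:20820275-20820304, minus strand): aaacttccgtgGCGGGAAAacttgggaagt
Mcm5 (chr8:75109345-75109374, plus strand): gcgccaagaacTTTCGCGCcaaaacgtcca
Mcm6 (chr1:128359797-128359826, minus strand): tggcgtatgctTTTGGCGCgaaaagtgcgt
Mcm7 (chr5:138172030-138172059, minus strand): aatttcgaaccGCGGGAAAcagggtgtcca
Orc1 (chr4:108579416-108579445, plus strand): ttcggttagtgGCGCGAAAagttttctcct
Orc3 (chr4:34614965-34614994, minus strand): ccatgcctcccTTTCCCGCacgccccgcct
Pola1 (chrX:93632275-93632304, minus strand): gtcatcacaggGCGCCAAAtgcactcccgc
Pold1 (chr7:44548766-44548787, minus strand): cgtatcttgtgGCGGGAAAagc
Rfc3 (chr5:151651200-151651229, minus strand): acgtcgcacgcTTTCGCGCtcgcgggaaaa
Of these, Cdt1, Mcm5, Mcm7, Orc3, Pold1 and Rfc3 had an optimal-list promoter site, and Cdc6, Gins3, Lig1, Mcm3, Mcm6, Orc1 and Pola1 had none. At Mcm5 the word began at position -153 from the RefSeq gene start, while the CTCF summit lay 842 bp upstream of the nearest annotated TSS. Mcm6 held 3 such words and Mcm3, Mcm5, Mcm7 and Rfc3 held 2 each. The words occurred with and without a CTCF site, and no relation between them was tested.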

How the data were processed

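CTCF ChIP-seq was measured in 2 replicates of newborn mouse forebrain on mm10, per the labels. The deposited peak lists were called on each replicate, on both together, and as optimal and conservative lists past an irreproducible discovery rate threshold. The read depth, like the aligner and peak caller, is not given in the sources used here, and no precision from depth can be stated. The authors' lists gave a signal value per peak, of unstated scale, −log10 of a q-value, and a summit offset. The optimal list held 56470 peaks, of which 56462 were placed on assembled chromosomes, with a median signal value of 64.3.

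From these, summits (start plus offset) were assigned to TSSs (5′ ends of GENCODE M21 basic transcripts) within 1 kb and to gene bodies. For 1 replicate alone, the 56462 peaks of its list with the highest signal value were used. A replicate's value at a site was that of its strongest overlapping peak, and a median over genes took each gene's strongest site. The CTCF consensus of 14 bases was searched on both strands, whole within 50 bp of the summit, with at most 2 mismatches. GC was taken over the window of 1 kb on each side of the TSS. Shares have Wilson 95% intervals, which cover counting error only. No test between groups was possible with 1 group. All 40 members are accounted for, the 3 strongest genes of each pathway list are named, and promoter sequences are those of the 10 strongest member sites, except 2 that were not in the promoter table. The members, lists and alternatives were chosen with earlier results of these data known. Methods were checked on simulated data. Work used Python 3.11.15, numpy 2.4.6, pandas 2.3.3, scipy 1.17.1, pysam 0.24.0, samtools 1.23.1 and matplotlib 3.10.9.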

Additional observations from a re-analysis of the deposited data

How the results depend on the processing

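The count of 19 members with a promoter site was 15 with a window of 500 bp (against 30.4% of all protein-coding genes), 26 with 5 kb (52.3%), 18 with 1 TSS per gene (34.0%) and 20 with the conservative list (35.5%), of which 16 were the same genes. It was 20 without replicate 1 (37.2%) and 21 without replicate 2 (38.3%). With peaks at or above the median signal value only, 9 members had a promoter site (against 16.9% of all protein-coding genes) and 8 a body site (against 31.1%), and the median promoter signal value was 231 (147.9 for all genes). That median was 91.9 with a window of 500 bp (52.3 for all genes). On the smaller scale of the replicate lists it was 26.2 without replicate 1 (26.0 for all genes) and 27.7 without replicate 2 (30.4). It turned below that of all genes with the conservative list (55.8 and 60.1) and 5 kb (70.2 and 82.1). Motif matches at the strongest site numbered 1 with at most 1 mismatch (against 14.3%) and 14 with at most 3 (against 72.9% of all genes with a site). They numbered 15 of 26 with a window of 5 kb, where the share of all genes was not computed. With only peaks at or above the median signal value, 3 of 36 other replication genes had a promoter site (against 16.9%). So had 10 of 36 other centromere and kinetochore genes. With a window of 500 bp the counts of these 2 lists were 17 of 36 and 11 of 36, against 30.4% of all protein-coding genes. With long noncoding RNA genes included, 30.5% of all genes had a promoter site. No paired analysis was possible because the study has 1 group. The unstated read depth and signal scale limit what weak sites such as those of Rfc1 and Cenpa can show.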
